A study of Mus musculus with 10 samples.

Results

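The testis-specific serine kinases are a family of protein kinases made mainly in the male germline. The genes described here are Tssk1, Tssk2, Tssk3, Tssk4 and Tssk6, chosen by name, and all 5 were found among the 36806 genes listed for each stage. The study sequenced mRNA from Ago4-/- mice and their Ago4+/+ littermates, all of the C57BL/6 strain. Ago4 encodes an Argonaute protein, one of a family that binds small RNAs. The mRNA came from Ago4-/- and Ago4+/+ whole testes at 3 days and at 8 days of age, and from leptotene/zygotene spermatocytes and pachytene spermatocytes labelled as from mice of 70 days, with 1 library for each genotype and stage. The sources used here do not say how many mice gave each library.

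Spermatocytes pass through leptotene, zygotene and pachytene in the first meiotic division and then become haploid spermatids, which reshape into sperm. In mice the testis-specific serine kinases are best known in spermatids, where they phosphorylate proteins of the sperm tail and nucleus, and male mice that lack Tssk6, Tssk3 or Tssk1 together with Tssk2 are infertile. The kinase domains place the family near the AMP-activated protein kinase and its relatives. TSKS is a substrate bound by the kinases, and TSACC is a small co-chaperone that links TSSK6 to HSP90, which keeps these kinases active.

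The values come from 4 tables in which the authors compared 2 conditions, 1 table each for day 3, pre-meiotic, leptotene/zygotene and pachytene material. The conditions carry numbers and no genotype, so each fold is the second condition over the first condition of its own table, and its sign cannot be read as an effect of losing Ago4. Whether the numbering follows a single order across tables is likewise unknown. No label ties the pre-meiotic table to an age of testis. Among the mRNA stages, only the testes of 8 days have no table under their own name. Ago4 itself, listed as Eif2c4, had log2 folds of 0.46 at day 3 (q = 0.420) and 0.40 in pre-meiotic material (q = 0.672) in the authors' deposited tables. It rose in the second condition at leptotene/zygotene, to a log2 fold of 0.96 (q = 0.0385), and at pachytene, to 1.48 (q = 0.000147), in the authors' deposited tables. Which part of Ago4 was deleted is unknown here, so its values check no label. The error beside each fold was worked back from the authors' test statistic, as the absolute log2 fold over the absolute statistic. It is called the implied error, covers counting and modelling of 2 libraries, and does not hold the spread between mice. Levels of expression were not used, so the labelled cell types were not checked against the levels of their markers.

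None of the 5 kinase genes was called in any of the 4 comparisons, where called means that the authors' q-value from Cuffdiff was at most 0.05. A gene said to have risen or fallen is one called higher or lower in the second condition. In each share, all genes means those with a completed test and a finite log2 fold other than 0. The count of called kinase genes was 0 of 5 at day 3, where 15.4% of all genes were called, and 0 of 5 in pre-meiotic material, where 1.19% were. It was also 0 of 5 at leptotene/zygotene, against 2.2% of all genes, and 0 of 5 at pachytene, against 1.71%. With so few genes, a count of 0 among 5 is close to the background at the last 3 stages and not far from it at day 3. At an unadjusted p of at most 0.05 the counts were 0, 0, 2 and 0 of 5 in stage order, beside 27.7%, 10.1%, 11.3% and 10.1% of all genes. The 2 genes at leptotene/zygotene were Tssk3 and Tssk4, which lay on opposite sides of 0.

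How closely the folds could be measured differed between stages. At leptotene/zygotene the implied errors of the 5 genes ran from 0.155 to 0.158, and between 91.2% and 92.2% of all genes had larger errors. At pachytene they ran from 0.23 to 0.31, with 70.7% to 85.6% of genes having larger errors. In pre-meiotic material the errors were 0.63 to 0.97, and only 15.0% to 24.5% of genes had larger ones. Day 3 testes gave errors of 0.40 to 1.67, with 4.82% to 36.0% of genes having larger ones. The kinase folds were thus among the better measured of their tables in both spermatocyte preparations and among the less well measured in day 3 and pre-meiotic material. The median implied error over all genes was 0.31 at day 3, 0.25 in pre-meiotic material, 0.41 at leptotene/zygotene and 0.46 at pachytene. The implied error is a measure of precision and not a level of expression, and depth per library is unknown.

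**Figure D1:**
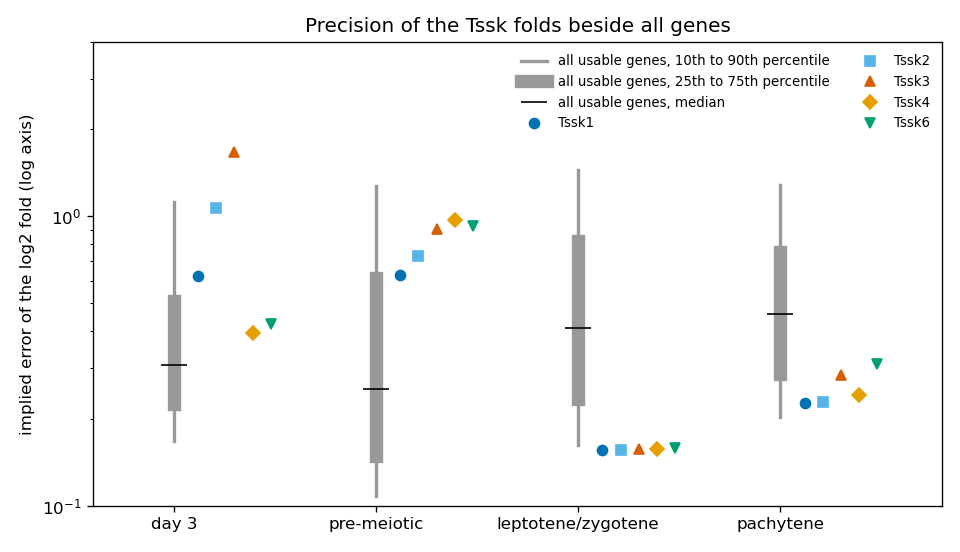
Implied error of the log2 fold (vertical log axis) for each Tssk gene (coloured symbols) in the 4 tables (horizontal axis), beside the 10th to 90th percentile (thin bar), the 25th to 75th percentile (thick bar) and the median (tick) of all genes with a completed test and a finite fold other than 0. The Tssk errors lie between 0.155 and 0.158 at leptotene/zygotene and between 0.40 and 1.67 at day 3.

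Tssk1 and Tssk2 are neighbours on chromosome 16. Tssk1 (ENSMUSG00000041566) lies at 17894296 to 17895744 and Tssk2 (ENSMUSG00000045521) at 17898730 to 17900116, in the coordinates of the authors' tables, which name no genome build. The stretch between the 2 loci is 2985 bases long. Both encode kinases that bind TSKS in mouse spermatids. They are close paralogs, and no source used here says how the authors assigned reads that fit both, so their values may not be fully separate. The promoter windows of both genes are shown because the pair shares a sequence element that the other 3 genes lack. They are taken from RefSeq on GRCm38.p6 and run from 250 bases before to 50 bases after the annotated start, at chr16:17893953-17894252 for Tssk1 and chr16:17898387-17898686 for Tssk2, both on the plus strand. Capitals mark matches to TGACNTCA, a cAMP response element with its central base left free, and, closer to the 3′ end, the longest run that the pair has in common.
Tssk1: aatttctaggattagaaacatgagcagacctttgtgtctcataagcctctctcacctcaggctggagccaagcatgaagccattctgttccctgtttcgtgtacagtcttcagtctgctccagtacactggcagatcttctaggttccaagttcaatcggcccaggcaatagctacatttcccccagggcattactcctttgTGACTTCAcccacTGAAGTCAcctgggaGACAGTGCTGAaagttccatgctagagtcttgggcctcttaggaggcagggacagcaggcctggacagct
Tssk2: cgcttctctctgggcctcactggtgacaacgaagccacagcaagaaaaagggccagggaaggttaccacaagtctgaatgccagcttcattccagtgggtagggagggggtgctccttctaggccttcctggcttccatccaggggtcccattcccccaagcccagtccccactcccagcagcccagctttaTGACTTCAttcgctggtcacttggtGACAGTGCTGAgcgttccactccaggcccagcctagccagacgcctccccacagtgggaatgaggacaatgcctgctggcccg
The full cAMP response element TGACGTCA is a site bound by CREM, a transcription activator of spermatids. The matches in this pair read TGACTTCA on 1 of the strands, so they are not that full site. Tssk1 held 2 matches, at -48 to -41 and -35 to -28 from the start, and Tssk2 held 1, at -58 to -51. On either strand TGACNTCA occurred in 8.83% of 32851 promoter windows of the same length, and the full palindrome TGACGTCA, which it includes, in 1.79% and in none of the 5 kinase genes. The shared run was 11 bases long, and the longest runs shared by the other 9 pairs of kinase promoters were 7 to 10 bases long. These matches are descriptions of the windows and do not show binding.

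Tssk1 was below 0 in all 4 comparisons without passing the threshold in any, and each interval included 0. The shared sign cannot be read across stages, because the order of the conditions may differ between comparisons. Its log2 folds in the authors' deposited tables were -0.84 at day 3 (implied error 0.62, q = 0.390) and -1.10 in pre-meiotic material (implied error 0.63, q = 0.533). It stood at -0.21 in the authors' deposited table for leptotene/zygotene (implied error 0.155, q = 0.640) and at -0.38 in that for pachytene (implied error 0.23, q = 0.530). The 95% interval of the fold at pachytene ran from 0.56 to 1.04 times the first condition, and that at leptotene/zygotene from 0.70 to 1.07 times. A change of more than 2-fold lay outside both intervals.

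Tssk2 differed little between the conditions at leptotene/zygotene, with a log2 fold of 0.06 in the authors' deposited table (implied error 0.156, q = 0.936) and a 95% interval of 0.84 to 1.29 times. At pachytene it was at -0.37 in the authors' deposited table (implied error 0.23, q = 0.556), next to the -0.38 of its neighbour Tssk1. The authors' deposited tables gave Tssk2 -0.21 in pre-meiotic material (implied error 0.73, q = 0.960) and -1.13 at day 3 (implied error 1.07, q = 0.517). These last 2 intervals, 0.32 to 2.32 times and 0.11 to 1.95 times, are too wide to place the gene on either side of 0. Dgcr2, whose locus ends 57 bases before Tssk1, had log2 folds of -0.33 at leptotene/zygotene and -0.42 at pachytene in the authors' deposited tables and was not called (q = 0.265 and 0.366). Car15, listed with the same locus as Dgcr2, stood at -0.22 and -0.78 in the authors' deposited tables for these stages, without a call (q = 0.938 and 0.730). Dgcr14, now named Ess2, starts 687 bases after Tssk2 and stood at 0.21 and -0.17 in the same 2 of the authors' deposited tables, without a call (q = 0.813 and 0.932).

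**Figure D2:**
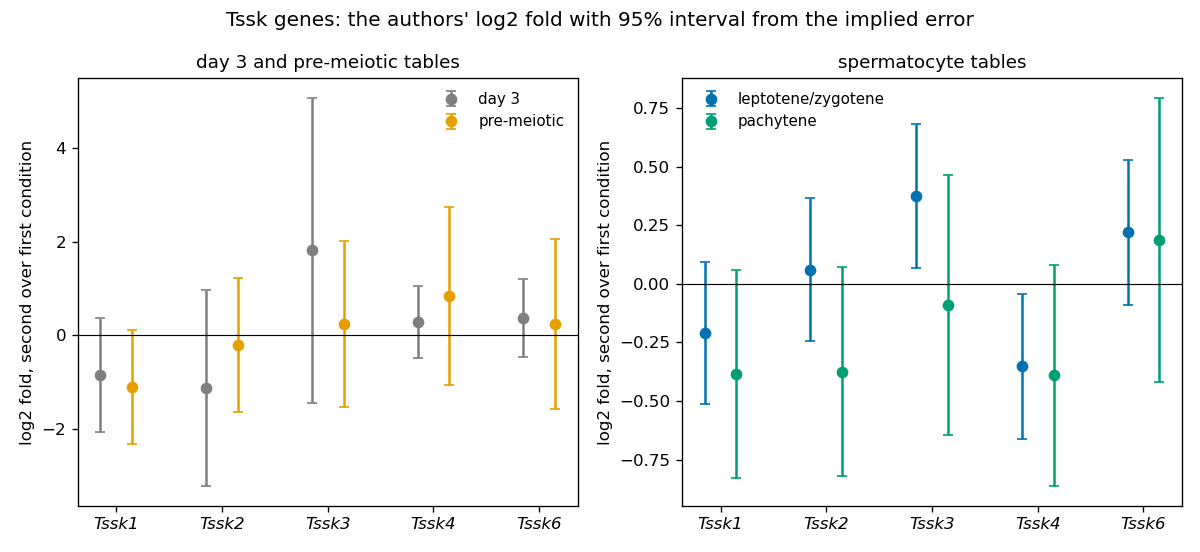
The authors' log2 fold of the second over the first condition (vertical axis) for the 5 Tssk genes (horizontal axis), with bars for the 95% interval from the implied error, in the day 3 and pre-meiotic tables (left) and the leptotene/zygotene and pachytene tables (right, with a finer axis). At leptotene/zygotene Tssk3 lies at 0.37 and Tssk4 at -0.35, and every other interval in both panels includes 0.

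Tssk3 and Tssk4 gave the highest and the lowest log2 fold of the family at leptotene/zygotene. Tssk3 (ENSMUSG00000000411, chromosome 4, 129166258 to 129168266) encodes a kinase that mice need for male fertility. Tssk4 (ENSMUSG00000007591, chromosome 14, 56269019 to 56271376) encodes a kinase that phosphorylates the tail protein ODF2 in mouse sperm. Their RefSeq promoter windows on GRCm38.p6, at chr4:129490721-129491020 on the minus strand for Tssk3 and chr14:55649934-55650233 on the plus strand for Tssk4, are shown to set the 2 genes side by side. Each is written 5′ to 3′, with the CCAAT box, read on either strand, in capitals.
Tssk3: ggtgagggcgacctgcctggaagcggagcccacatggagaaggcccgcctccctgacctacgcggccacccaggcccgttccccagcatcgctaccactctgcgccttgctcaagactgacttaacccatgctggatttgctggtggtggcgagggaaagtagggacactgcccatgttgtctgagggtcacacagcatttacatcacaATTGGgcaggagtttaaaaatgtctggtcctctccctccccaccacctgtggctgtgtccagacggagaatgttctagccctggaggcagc
Tssk4: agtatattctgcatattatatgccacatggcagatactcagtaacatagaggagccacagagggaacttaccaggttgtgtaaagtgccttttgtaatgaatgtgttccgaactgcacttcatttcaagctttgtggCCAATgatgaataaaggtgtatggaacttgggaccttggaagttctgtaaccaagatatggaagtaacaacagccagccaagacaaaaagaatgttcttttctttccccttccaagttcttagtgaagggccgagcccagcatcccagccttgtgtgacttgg
Tssk3 held its CCAAT box at -41 to -37 and Tssk4 at -113 to -109, and 37.4% of all promoter windows hold one. The Tssk3 window has a G and C content of 59.3% and 10 CpG sites, and the Tssk4 window one of 43.3% and 2 CpG sites, where the medians of all windows are 52.7% and 7. In the Tssk6 window, which is not shown, the partial element TGACG stood at -73 to -69, and 20.8% of all windows hold it. The TATA box TATAAA (13.6% of windows) and GTTGCC, 1 arm of the X-box that RFX factors bind (12.5%), matched none of the 5 windows on either strand.

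**Figure D3:**
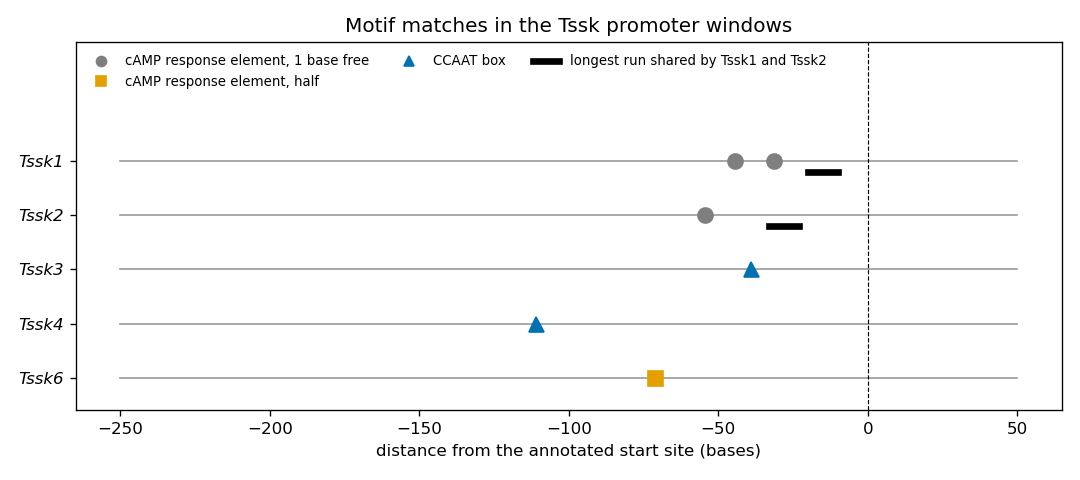
Positions of motif matches (symbols) in the promoter windows of the 5 Tssk genes (rows), in bases from the annotated start site (horizontal axis), with the longest run shared by Tssk1 and Tssk2 as a black bar. Tssk1 has 2 matches to the cAMP response element with 1 base free and Tssk2 has 1, all within 58 bases before the start.

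In the authors' deposited table for leptotene/zygotene, Tssk3 had a log2 fold of 0.37 (implied error 0.157, unadjusted p = 0.0172, q = 0.263). The 95% interval was 1.05 to 1.61 times the first condition. Tssk4 stood at -0.35 in the authors' deposited table (implied error 0.157, unadjusted p = 0.0249, q = 0.318), with an interval of 0.63 to 0.97 times. Both intervals leave out 1, and neither gene passed after adjustment over all genes. The Tssk3 fold exceeded the Tssk4 fold by 0.73 on the log2 scale, with an error of 0.22 and a 95% interval of 0.29 to 1.16. Among the 10 pairs of kinase genes at this stage, 3 had intervals of the difference that left out 0, each of them holding Tssk3 or Tssk4. The other 2 were Tssk1 minus Tssk3, at -0.58 (interval -1.02 to -0.15), and Tssk4 minus Tssk6, at -0.57 (interval -1.01 to -0.14). These intervals are not widened for the number of pairs or for the choice of the highest and lowest folds of the family. They treat the errors of the 2 genes as independent, and they describe 2 libraries. For each of the other stages, 0 of 10 pairs had such an interval.

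Elsewhere Tssk3 and Tssk4 differed from 0 by less than their intervals. At pachytene Tssk3 was at -0.09 in the authors' deposited table (implied error 0.28, q = 0.957), with an interval of 0.64 to 1.38 times. Tssk4 was at -0.39 in the authors' deposited table for pachytene (implied error 0.24, q = 0.566), with an interval of 0.55 to 1.06 times. In pre-meiotic material the authors' deposited table listed Tssk3 at 0.24 (implied error 0.90) and Tssk4 at 0.85 (implied error 0.97). At day 3 the authors' deposited table listed Tssk3 at 1.82, the highest log2 fold of the family, with an implied error of 1.67 and an interval of 0.37 to 33.9 times. Tssk4 had the narrowest interval of the family at day 3, 0.71 to 2.09 times, at a log2 fold of 0.29 in the authors' deposited table. The nearest neighbour of Tssk3, 1700125D06Rik, now named Fam229a, starts 167 bases after it and stood at -0.31 in the authors' deposited tables for both leptotene/zygotene (q = 0.445) and pachytene (q = 0.741). Bsdc1, whose locus ends 515 bases before Tssk3, stood at -0.19 and -0.14 in the same authors' deposited tables (q = 0.742 and 0.916). Gm12979, 946 bases after Tssk3, had no usable fold at either stage.

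Tssk6 was above 0 in all 4 comparisons, again without a call and with each interval including 0. Here too the shared sign cannot be read across stages. TSSK6 acts in the compaction of sperm chromatin. The log2 folds in the authors' deposited tables were 0.37 at day 3 (implied error 0.43, q = 0.607) and 0.24 in pre-meiotic material (implied error 0.93, q = 0.963). It was at 0.22 in the authors' deposited table for leptotene/zygotene (implied error 0.158, q = 0.617) and at 0.19 in that for pachytene (implied error 0.31, q = 0.902). The intervals in the spermatocyte tables were 0.94 to 1.44 times and 0.75 to 1.73 times. The tables give Tssk6 (ENSMUSG00000047654) the same locus as Ndufa13, a subunit gene of respiratory complex I, on chromosome 8 at 72418087 to 72427415. No step that keeps the strand is named in the labels' protocols, so reads in any shared stretch cannot be told apart by strand. Ndufa13 stood at 0.72 at day 3 (q = 0.0648) and at -0.06 in pre-meiotic material in the authors' deposited tables. For leptotene/zygotene the authors' deposited table gave Ndufa13 -0.14 and for pachytene 0.17, and it was not called in any table. The part that Ndufa13 reads have in the Tssk6 values was not tested.

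A list of 11 genes, called partner genes below, holds partners and substrates of the kinases and also Tssk5 and Crem. Of these 11, 1 was called at leptotene/zygotene, beside 2.2% of all genes, and 0 at pachytene, beside 1.71%. The called gene was Odf2, which encodes the tail fibre protein phosphorylated by TSSK4 in mice. It was called higher in the second condition, as were 0.817% of all genes. Its log2 fold was small and closely measured, at 0.22 with an implied error of 0.057 in the authors' deposited table (q = 0.00897). Odf2 stood at -0.03 in the authors' deposited table for pachytene (q = 0.944). Tsks, the substrate bound by TSSK1 and TSSK2, had log2 folds of 0.09 at leptotene/zygotene (q = 0.807) and -0.34 at pachytene (q = 0.405) in the authors' deposited tables. The pachytene value of Tsks, with an implied error of 0.16, lay near those of Tssk1, Tssk2 and Tssk4. It lay below those of Tssk3 (-0.09) and Tssk6 (0.19), and none of these genes was called. Tssk5, a further family member that was not in the chosen set, stood at -0.39 and -0.71 in the authors' deposited tables for these stages, with implied errors of 0.28 and 0.42 and no call. In the day 3 and pre-meiotic tables Tssk5 had no completed test with a finite fold other than 0.

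The chaperone side of the list moved little at the spermatocyte stages. Tsacc, listed as 1700021C14Rik, stood at 0.02 and 0.13 in the authors' deposited tables for leptotene/zygotene and pachytene. The HSP90 genes Hsp90aa1 and Hsp90ab1 stood at -0.17 and -0.22 at leptotene/zygotene, and at -0.23 and 0.16 at pachytene, in the authors' deposited tables. Among the other listed genes, Spag16, which encodes an axoneme protein phosphorylated by TSSK2, stood at -0.10 and -0.05 in the same 2 of the authors' deposited tables. Crem was at 0.03 and 0.01 in the authors' deposited tables for leptotene/zygotene and pachytene, with implied errors of 0.11 and 0.15. Creb1, a substrate of TSSK4 in vitro, had log2 folds of 1.11 and -0.13 in those of the authors' deposited tables, with errors of 0.71 and 0.46. H2afx, the histone variant whose phosphorylation in spermatids needs TSSK6, was at -0.59 and 0.39 there (errors 0.34 and 0.35) per the authors' deposited tables. Pdpk1, a kinase that activates many other protein kinases, was at 0.05 and -0.35 in the authors' deposited tables, without a call. The median over the list was 0.02 at leptotene/zygotene and -0.05 at pachytene, where the medians of all genes were -0.07 and 0.03.

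At day 3, 9 of the 11 partner genes had a usable fold. Of these, 3 were above 0 with 1 called higher, and 6 were below 0 with 2 called lower. H2afx rose, at 0.85 in the authors' deposited table (q = 0.0179), beside 5.03% of all genes called higher. Odf2 fell, at -0.87 (q = 8.00e-09), and so did Pdpk1, at -1.24 (q = 2.88e-05), in the authors' deposited table, beside 10.4% of all genes called lower. Tsks and Spag16 were poorly measured there, at -0.21 and -0.53 in the authors' deposited table with implied errors of 0.78 and 0.73. Crem, Hsp90aa1 and Hsp90ab1, at 0.44, -0.42 and -0.27 in the authors' deposited table, were just short of the threshold (q = 0.0576, 0.0524 and 0.0613). Tsacc was at 0.10 (q = 0.893). In pre-meiotic material 0 of 9 partner genes were called, beside 0.48% of all genes called higher and 0.712% called lower, with log2 folds from -0.27 for Odf2 to 2.07 for Tsks in the authors' deposited table. The implied error of that Tsks value was 2.13.

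Calls among the relatives of the family by sequence, like those of all genes, were most frequent at day 3. Of 16 kinases related to the AMP-activated protein kinase, 5 fell and 0 rose in the second condition at day 3, with a list median of -0.24 against 0.03 for all genes and 10.4% of all genes called lower. At leptotene/zygotene 1 of 15 fell, Sik2 at -0.81 in the authors' deposited table, and 1.39% of all genes were called lower there. In pre-meiotic material and at pachytene 0 of 16 were called, beside 1.19% and 1.71% of all genes, with medians of -0.04 and 0.12. Among 10 other kinases of spermatocytes and spermatids, 2 fell at day 3, which were Mak, a kinase of cilia and male germ cells, at -1.40 and the protein kinase A subunit gene Prkacb at -0.38 in the authors' deposited table. At each of the other stages 0 of these 10 were called, beside 1.19%, 2.2% and 1.71% of all genes, with medians of -0.30 in pre-meiotic material, -0.08 at leptotene/zygotene and 0.11 at pachytene.

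Several germ cell and somatic marker lists held calls in the same day 3 table. Of the leptotene and zygotene markers 8 of 19 fell in the second condition (median -0.76), of the spermatogonia markers 7 of 16 (median -0.68) and of the pachytene markers 4 of 14 (median -0.66), beside 10.4% of all genes called lower. Piwil1, a piRNA pathway gene on the pachytene list, was at -1.22 in the authors' deposited table for day 3 (q = 0.0273). All 10 macrophage markers were above 0 (median 0.80), and 4 of them rose, beside 5.03% of all genes called higher. Endothelial markers (2 of 8 called lower, median -0.36) and Sertoli cell markers (2 of 14 called lower, median -0.08) also held calls. Leydig cell markers had 2 of 9 called lower and 1 higher (median -0.23). Peritubular myoid markers had 2 of 8 called lower and 1 higher (median 0.22), and 1 of 7 erythrocyte markers was called higher (median 0.15). In pre-meiotic material all 19 leptotene and zygotene markers were below 0 (median -0.53) and 9 of them fell, beside 0.712% of all genes. There 4 of 5 epididymis and seminal vesicle markers (median -0.52) and 2 of 16 spermatogonia markers (median 0.14) were also called lower. Crisp1, left out of these 5 for its infinite ratio, had a q of 1.37e-11 in the authors' deposited table. Of 6 erythrocyte markers 4 were called higher (median 0.71), as was 1 of 14 Sertoli cell markers (median 0.17), beside 0.48% of all genes. The part of these markers in the kinase and partner values was not tested.

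Spermatid genes, whose transcripts are known to appear with those of the kinases, were also measured more closely in the spermatocyte tables than at day 3. All 20 spermatid markers had a completed test with a finite fold in both spermatocyte tables. Their median implied errors were 0.16 at leptotene/zygotene and 0.20 at pachytene. In pre-meiotic material 17 of the 20 had such a test, with a median error of 0.49, and at day 3 only 11 did, with a median error of 0.70. Their median log2 fold was 0.08 at leptotene/zygotene and -0.07 at pachytene. Single markers lay on both sides of 0, from -0.46 to 0.41 at leptotene/zygotene and from -0.77 to 0.67 at pachytene. One spermatid marker was called in the 4 tables, the acrosome membrane gene Spaca1, which fell at leptotene/zygotene (-0.46 in the authors' deposited table). This was 1 of 20 markers, beside 1.39% of all genes called lower there. Of 15 pachytene markers 1 also fell at leptotene/zygotene, Piwil1 at -0.59 in the authors' deposited table, and 0 were called at pachytene, beside 1.71% of all genes. In bulk preparations like these, fewer cells of a type and less RNA per cell cannot be told apart.

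Markers of other tissues were far from 0 in the same tables. At leptotene/zygotene all 6 measured erythrocyte markers were above 0 (median 3.08, 4 called higher), as were 6 of 8 peritubular myoid markers (median 2.06, 5 called higher) and 7 of 8 endothelial markers (median 1.53, 1 called higher). At that stage 0.817% of all genes were called higher. At pachytene the medians were 2.03 for 5 erythrocyte markers, 1.01 for 8 myoid markers and 1.71 for 8 endothelial markers, with 0, 3 and 3 called higher in the second condition, where 0.656% of all genes were. All 5 markers of epididymis and seminal vesicle with a usable fold were called higher at pachytene (median 1.42). At leptotene/zygotene 0 of 5 were called (median -0.07). Crisp1 and Defb1, of the same list, had infinite ratios at pachytene and no call (q = 0.533 and 0.501). Macrophage markers had medians of 1.11 (3 of 8 called higher) at leptotene/zygotene and 0.30 (1 of 10 called higher) at pachytene. Lyz2 (q = 0.0199) and Cd68 (q = 0.163) had infinite ratios at leptotene/zygotene and are left out of the 8. Sertoli cell, Leydig cell and spermatogonia markers had no call at either stage, with medians of -0.23, -0.17 and -0.08 at leptotene/zygotene and 0.38, -0.22 and 0.39 at pachytene. Of the leptotene and zygotene markers, 0 of 19 were called at leptotene/zygotene (median -0.00124) and 4 of 18 fell at pachytene (median 0.03), beside 1.05% of all genes called lower. The 5 kinase genes had medians of 0.06 at leptotene/zygotene and -0.37 at pachytene. The part of these other tissues in the kinase values was not tested.

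**Figure D4:**
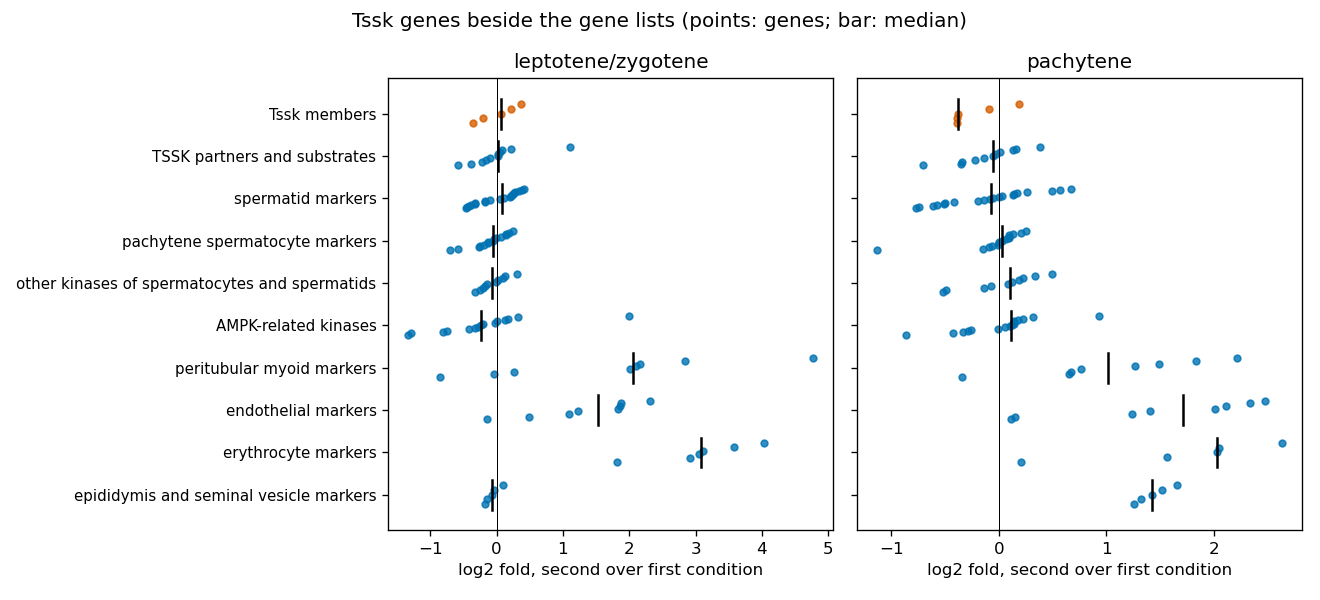
The authors' log2 fold of the second over the first condition (horizontal axis) for each gene (points) of the Tssk family and of 9 gene lists (rows), with the median of each as a bar, at leptotene/zygotene (left) and pachytene (right). The Tssk genes lie between -0.39 and 0.37, while the erythrocyte markers have medians of 3.08 and 2.03.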

How the data were processed

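Whole testes and spermatocytes were sequenced as mRNA, with 8 libraries of mRNA, and 2 libraries of small RNA are not analysed here. The submitters' processing notes name Bowtie 0.12.7 with TopHat 1.3.0, and Cufflinks 1.1.0 beside Cuffdiff; no source used here names the genome build or annotation. Each gene has, per the file headers, a p-value, a q-value, a log2 fold and a score that is the Cuffdiff test statistic, all made by the authors, and these were copied, not recomputed. The 8 columns of level per condition match no library, because the conditions are named only by number, and were not used. The planned levels by stage, pseudocounts, floors, other scalings of levels and search for genes with like levels were therefore not run.

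Genes with a completed test and a finite log2 fold other than 0 were used, and are called usable. Tested genes with an infinite ratio are left out of every share and count, whatever their q-value. They number 1430 at day 3, 1186 in pre-meiotic material, 1156 at leptotene/zygotene and 1592 at pachytene. The 95% intervals are the log2 fold ± 1.96 implied errors. The intervals and p-values cover 2 libraries, with no replicates. Locus starts are printed counted from 1, since 147 of 395 miRNA loci had the length of their RefSeq hairpin when starts were read as counted from 0, and 0 did when they were read as counted from 1. Genes were matched by symbol or by current symbol of the gene ID (31840 of 36806 IDs). Promoter windows came from RefSeq, and all 5 kinase genes matched. Members and lists were chosen with earlier results of these data known. Named genes are the kinases, their partner list, their neighbours, and called members of other lists where a result turns on them. The calculations were tested on simulated data, in Python 3.11.15 with pandas 2.3.3.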

Additional observations from a re-analysis of the deposited data

How the results depend on the processing

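No paired analysis was possible because each genotype and stage had 1 library, and no library could be left out. All 20 log2 folds of the kinase genes kept their sign when centred on the median of all usable genes. That alternative was chosen after seeing the data, and no q-value was recomputed for it. At an unadjusted p of at most 0.05, Tssk3 (0.37) and Tssk4 (-0.35) at leptotene/zygotene passed and the other 18 folds did not; the folds themselves are the same under this choice. At a q of at most 0.01 the called genes were 2242 at day 3 (597 higher), 117 in pre-meiotic material (43 higher, 74 lower), 199 at leptotene/zygotene (80 higher, 119 lower) and 164 at pachytene (63 higher, 101 lower). At a q of at most 0.05 they were 3486 (1137 higher), 226 (91 higher, 135 lower), 405 (150 higher, 255 lower) and 354 (136 higher, 218 lower) in the same order. Keeping genes with an implied error of at most 0.5, also chosen after seeing the data, left 87 called higher at pachytene and kept the other 11 counts within 1.5 times. The alternatives that need levels (pseudocounts, floors, scaling by median or upper quartile) were not run. Depth is unknown, and at day 3 and in pre-meiotic material the intervals of the kinase folds allow changes of 2-fold or more.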
